A study of Mus musculus with 6 samples.

Results

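The kidney stroma examined here comprised 61 cells, selected on the summed unique molecular identifiers (UMIs, barcodes that count each captured RNA molecule once) of Pdgfrb, Col1a1, Col1a2 and Col3a1. They were drawn from 24212 kidney cells, kept because they held between 200 and 3000 genes and no more than 50% mitochondrial UMIs, out of 34034 deposited kidney cells and 58561 cells in the whole series. A member held at least 3 UMIs over the 4 selection genes, no UMI of the endothelial genes Pecam1 and Kdr or of the leukocyte gene Ptprc, and at most 1 UMI of the epithelial gene Epcam. The tissue was kidney of 12-week-old male C57BL/6 mice, an inbred strain, with no transgene or agent named in any group. Minced kidney was digested with type I collagenase, either for 60 min as the control or in a recirculating microfluidic platform that was emptied at 15 min and again at 60 min, with 1 pass through a device that breaks up aggregates and filters, and live cells were sorted by exclusion of SytoxBlue before droplet capture. Each of these 3 conditions was 1 library, and per the study's methods the control and platform conditions of a replicate used tissue of 1 mouse. Differences between conditions therefore lack a replicate check and were not tested. All intervals are exact at 95% (Clopper-Pearson for shares, Poisson for levels, conditional binomial for ratios) and cover counting error only.

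Stromal cells fill the space between tubules and around vessels. Interstitial and perivascular fibroblasts make the collagens, proteoglycans and elastic fibres of the matrix. Mural cells (smooth muscle cells, pericytes and the mesangial cells of the glomerulus) wrap vessels and contract, and renin cells of the afferent arteriole belong to the same lineage. PDGF receptor beta, encoded by Pdgfrb, is shared by fibroblasts and mural cells, whereas the fibrillar collagen genes Col1a1, Col1a2 and Col3a1 are used most by fibroblasts.

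The 61 cells divided by their leading genes into a fibroblast and a mural side, and mesangial cells, which Pdgfrb would also select, were not set apart. Cells were placed by comparing, within each cell, the UMIs of 11 fibroblast genes with those of 16 mural genes. On this comparison 33 cells lay on the fibroblast side, 25 on the mural side and 3 on neither. The placement was clear for most cells: 4 lay within 2 UMIs of equality, and 11 held at least 10 UMIs of both lists. Fibroblast-side cells held a median of 145 UMIs of the fibroblast list (range 2 to 358) and 4 of the mural list (0 to 65). Mural-side cells held a median of 130 UMIs of the mural list (10 to 377) and 0 of the fibroblast list (0 to 16). Of the mesangial genes, Gata3, a transcription factor, was seen in 4 mural-side cells. Itga8, an integrin chain of mesangial cells, was seen in 4 mural-side cells and in 12 fibroblast-side cells. Fhl2 and Art3 were present on both sides, and Serpine2 had 47 UMIs in 17 mural-side cells and 15 in 8 fibroblast-side cells. These 5 genes are among the 16 mural genes that placed the cells. Whether they mark the same cells within the mural side was not tested. No mesangial group was therefore drawn, and that name is not used here.

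**Figure D1:**
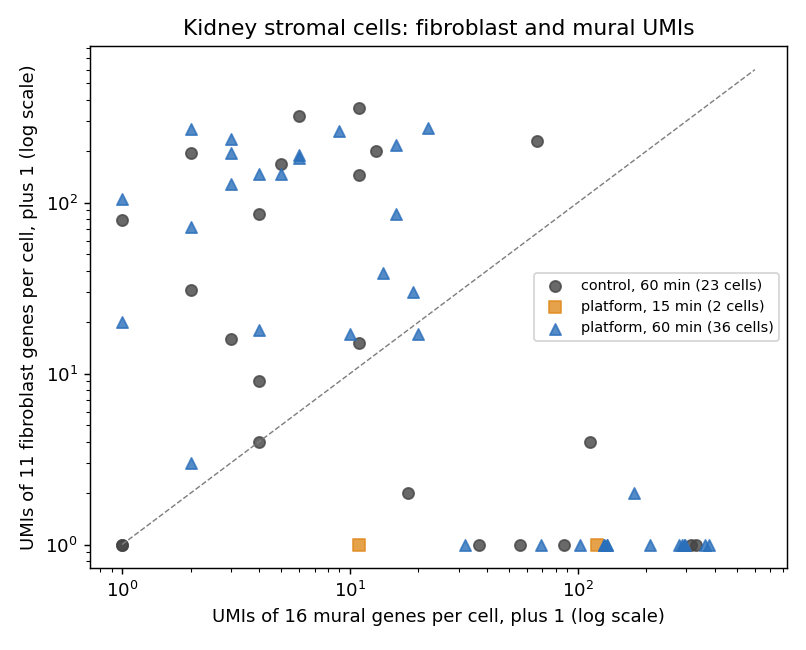
UMIs per cell of 11 fibroblast genes (vertical axis, plus 1, log scale) against 16 mural genes (horizontal axis, plus 1, log scale) for the 61 stromal cells, 1 point per cell, with a dashed line of equality. The 33 cells above the line form the fibroblast side and the 25 cells below it the mural side, and both 15 min cells are on the mural side.

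The other cell types of the kidney were checked by their own genes. The endothelial genes Cdh5, Flt1 and Tie1 were at 0 in the 61 cells, as were the lymphocyte and granulocyte genes Cd3e, Nkg7 and S100a8 and the 4 cell-cycle genes Mki67, Top2a, Cdk1 and Ccnb1. Emcn, Egfl7 and Plvap, the other 3 of 6 endothelial genes, summed with them to 132, 464 and 74.0 CPM (UMIs scaled to 1000000 UMIs of the same cells) in the control, 15 min and 60 min members, against 11589 in cells gated on Pecam1 and Kdr. The 8 leukocyte genes summed to 599.7 CPM in control members, 0 in the early and 116 in the late platform members, with Lyz2, Cd74, C1qa, Cd79a and Cd52 seen. Of the 82 control UMIs, 73 were Cd74 UMIs of 1 mural-side cell. The 8 proximal tubule genes, seen in every class of cell, summed to 1777, 2782 and 1249 CPM in the control, 15 min and 60 min members. They reached 3337 in cells gated on Ptprc and 87080.3 in cells gated on the proximal tubule genes Slc34a1 and Lrp2. The 7 distal tubule and collecting duct genes summed to 132 CPM over the members and the 3 Schwann cell genes to 16.5. The part of such RNA in the results below was not tested.

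The 3 cells on neither side were control cells, and 2 of them carried a podocyte gene. Nphs1, which encodes the slit diaphragm protein nephrin, summed to 46 UMIs in these 2 cells and was at 0 in the 58 cells of the fibroblast and mural sides. Both cells held 0 UMIs of the fibroblast and the mural list. The remaining cell held 1991 UMIs, of which 33.1% were mitochondrial, with 3 UMIs of each list. Results that rest on these cells are given below with and without them.

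The selection genes describe the members and are not findings. Fibroblast-side cells held a median of 42 selection UMIs (range 3 to 168) and mural-side cells a median of 5 (3 to 20). Pdgfrb itself had a median of 1 UMI on the fibroblast side and 3 on the mural side. At the threshold, 7 members held 3 selection UMIs, of which 5 were on the mural side, and 16 further cells just outside it held 2, of which 15 had more mural than fibroblast UMIs. Outside the members the selection genes reached 1.06 CPM. There, 3 or more selection UMIs were held by 4 of 9900 other cells at 60 min, which the exclusion genes had removed, and by 0 of 5863 and 0 of 8388 other cells of the control and the 15 min interval.

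Stromal cells were recovered in the control and in the late platform interval, and hardly at all in the first 15 min. The control library gave 23 members of 5886 kept cells (0.391%, interval 0.248 to 0.586%). The 15 min interval gave 2 of 8390 (0.0238%, 0.00289 to 0.0861%), and the 60 min interval 36 of 9936 (0.362%, 0.254 to 0.501%). The 15 min share was 0.0610 times the control share (0.00697 to 0.247), and its interval lay below that of both other libraries. The 60 min share was 0.927 times the control share (0.535 to 1.64), so a difference between those libraries was not detectable at this depth. Members had similar depths, with medians of 6511 UMIs in control cells, 5391 in the early and 6257 in the late interval. The 3 kidney libraries shared between 53 and 211 barcodes pair by pair, none of them a member's.

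A share moves with the abundance of the other cells, and proximal tubule cells made up much of the 15 min library. Among kept cells outside the proximal tubule gate, there were 0.655 members per 100 control cells, 0.141 per 100 early and 0.483 per 100 late platform cells. On this base the 15 min value was 0.216 times the control (0.0247 to 0.874). Per 100 cells of the endothelial gate, the control held 4.60 members, the early interval 0.533 and the late interval 1.59. Relative to endothelial cells, stromal cells at 60 min were thus 0.346 times the control (0.199 to 0.611), since the 60 min interval held 2263 gated endothelial cells and the control 500.

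Fibroblast-side cells were found in 13 of 23 control members (56.5%, interval 34.5 to 76.8%) and in 20 of 36 members at 60 min (55.6%, 38.1 to 72.1%). At 15 min they numbered 0 of 8390 kept cells (interval 0 to 0.0440%). The limit of 3 counts, used below for genes at 0, would be 0.0358% of that total. The control held 7 mural-side cells, the early interval 2 and the late interval 16, or 0.119, 0.0238 and 0.161% of the kept cells. The 2 early cells held 10 and 121 UMIs of the mural list and 0 of the fibroblast list, and their Pdgfrb counts were 2 and 6 UMIs.

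Many mural cells with few UMIs of the 4 selection genes fell outside the members. Among kept cells that passed the exclusion genes, 65 held at least 20 UMIs of 5 smooth muscle and 5 pericyte genes, and 22 of these were members. The other 43 held 0 (17 cells), 1 (15 cells) or 2 (11 cells) selection UMIs. Counted this way, the control held 17 mural cells (0.289%, interval 0.168 to 0.462%), the early interval 2 (0.0238%, 0.00289 to 0.0861%) and the late interval 46 (0.463%, 0.339 to 0.617%). The 60 min share was 1.60 times the control (0.902 to 2.98) and the 15 min share 0.0825 times (0.00925 to 0.348).

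**Figure D2:**
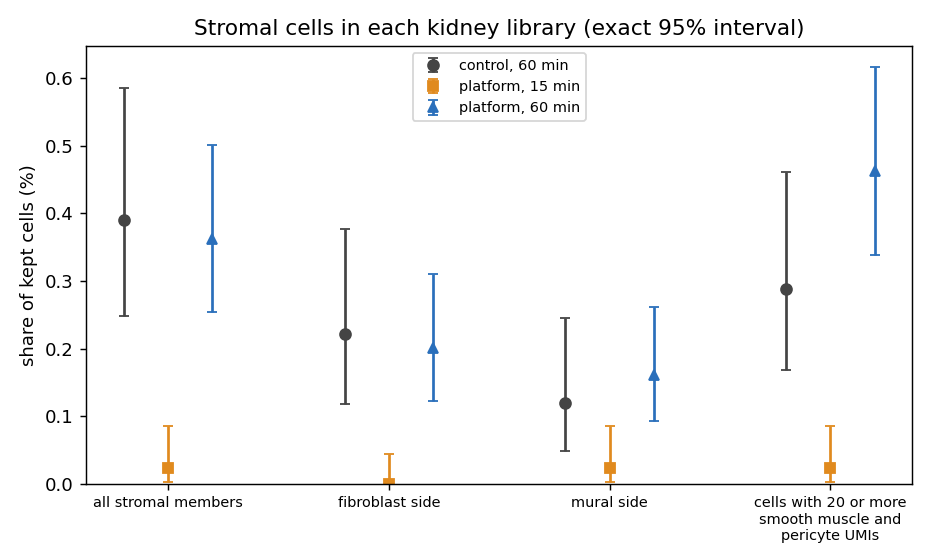
Share of kept cells (percent, vertical axis) for all stromal members, for the fibroblast and the mural side and for cells with 20 or more smooth muscle and pericyte UMIs, in each kidney library (points) with exact 95% binomial intervals (bars). All 4 values of the 15 min interval lie at or below 0.0238%, and the intervals of the control and the 60 min interval overlap in each set.

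Outside mitochondrial and ribosomal protein genes, Malat1 (49345 CPM), Mgp, Gm42418 (16598.5 CPM) and Dcn led the fibroblast side among the members' 10 most abundant genes. Levels are given as CPM, and the chemistry counts 1 end of each molecule, so they were not divided by gene length. Mgp, an inhibitor of matrix calcification, reached 34051 CPM on the fibroblast side and 2596 on the mural side. In all other kept cells it was at 5.4. Dcn, the small proteoglycan decorin that binds collagen fibrils (ENSMUSG00000019929, chromosome 10, 97479609 to 97518143, mm10), reached 15284 CPM on the fibroblast side. It was seen in 33 of the 33 fibroblast-side cells and in 2 mural-side cells, at 52.2 CPM. Dcn held a median of 99 UMIs per control fibroblast-side cell (range 4 to 313) and of 82.5 at 60 min (2 to 182), and these ranges overlapped. The other fibroblast genes were led by Fbln1, the basement membrane protein fibulin-1, at 1688 CPM, Clec3b at 1504, Col14a1 at 1238, the microfibril gene Mfap5 at 1018 and Lum at 803. Clec3b, Mfap5, Lum, Dpt and Scara5 were at 0 on the mural side. The same genes served to place the cells, so their contrast between sides is a description.

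The genes outside the placement lists separated the sides along matrix and contraction. Of 2822 genes with at least 20 UMIs over both sides, 524 (18.6%) were over 2-fold higher and 509 (18%) over 2-fold lower on the fibroblast side, counted on a ratio with 0.5 UMI added to each side. The median log2 ratio of all tested genes was -0.12. These counts are over all tested genes, which included 10 of the 11 fibroblast placement genes, 13 of the 16 mural placement genes and the 4 selection genes. Because the sides were defined on the RNA of the same cells, these counts and the values below describe the split and do not test it.

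Fibrillar and other collagens were over 2-fold higher on the fibroblast side in 8 of 10 measured genes, with a median log2 ratio of 3.31. Col6a1, a chain of the beaded-filament collagen around cells, stood at 793 CPM on the fibroblast side and 84.8 on the mural side. Col6a2 stood at 399 and 19.6, and Col15a1, found near basement membranes, at 292 and 13.0. Col18a1, the basement membrane collagen that releases endostatin, was the exception at 169 and 346 CPM. All 8 measured elastic fibre genes were higher on the fibroblast side, at a median log2 ratio of 2.50. Fbln5, which tethers elastic fibres to cells, was at 1089.5 and 143.5 CPM, and all 22 of its mural-side UMIs lay in 1 cell. Fbn1, the backbone of microfibrils, was at 215 and 45.7.

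Small proteoglycans were higher on the fibroblast side in 5 of 6 genes. Bgn was at 2864 CPM there and 619.7 on the mural side, and Fmod was at 353 and 0. Aspn went the other way, at 66.5 and 202. The enzymes and chaperones that process collagen were over 2-fold higher in 7 of 8 measured genes. Among them were the collagen chaperone Serpinh1 at 1294 and 307 and the crosslinking enzyme Loxl1 at 425 and 19.6. Basement membrane genes were more evenly shared, with 5 of 10 over 2-fold higher and 1 over 2-fold lower. Col4a1, the main chain of the basement membrane network, was at 604 CPM on the fibroblast side and 581 on the mural side.

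Chemokine and complement genes were higher on the fibroblast side in 8 of 8 measured genes, with a median log2 ratio of 3.12. Cxcl12, a chemokine that retains leukocytes and progenitors (chromosome 6, 117168535 to 117181367, mm10), was at 2573 CPM on the fibroblast side and 228 on the mural side. Serping1, the C1 inhibitor, was at 2072 and 300.1. Ccl2 was at 0 in all 61 cells, and Il6 had 6 UMIs in 3 fibroblast-side cells.

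**Figure D3:**
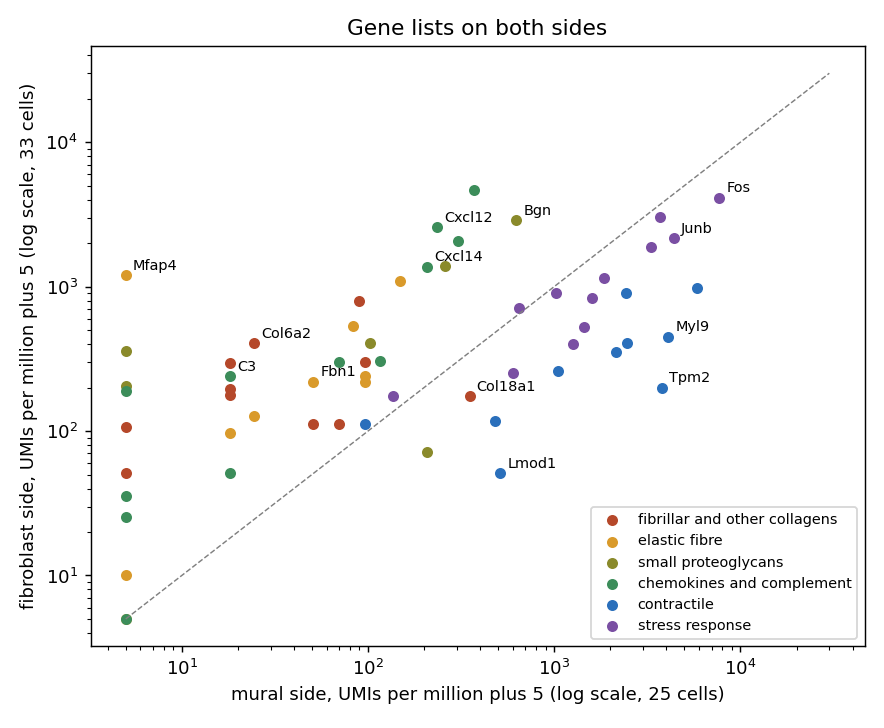
Level of each gene of 6 lists on the fibroblast side (vertical axis) and on the mural side (horizontal axis), in CPM plus 5 on log scales, 1 point per gene, with a dashed line of equality. Collagen, elastic fibre and chemokine and complement genes lie mostly above the line and contractile genes mostly below it, and Col18a1 lies below the line among the collagens.

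Among genes of neither placement list, the 10 with the largest ratio toward the fibroblast side were at 0 on the mural side. Rbp4, the plasma carrier of retinol, had 320 UMIs in 23 fibroblast-side cells, at least 83.6-fold higher than the limit of 3 counts on the mural side. Mfap4, an elastic fibre protein, had 234 UMIs in 16 cells, at least 61.2-fold higher. Serpinf1 had 166 UMIs in 22 cells, Smoc2 144 in 26, Sfrp4, a secreted Wnt inhibitor, 113 in 15, and the procollagen protease Adamts2 92 in 26. Abca8a had 80 UMIs in 28 cells, Itgbl1 76 in 14, Fmod 69 in 13 and Igfbp6 66 in 18.

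The mural side held high levels of contractile genes, below Malat1 at 88382 CPM. Acta2, smooth muscle actin (ENSMUSG00000035783, chromosome 19, 34241090 to 34255590, mm10), reached 10404 CPM there. Tagln, an actin-binding protein of smooth muscle, reached 6725, the pericyte regulator of G-protein signalling Rgs5 3979 and Myh11, the smooth muscle myosin heavy chain, 2753. Outside the placement list, 9 of 10 contractile genes were over 2-fold lower on the fibroblast side, with a median log2 ratio of -2.59. Myl9 was at 4077 CPM on the mural side and 445 on the fibroblast side, Tpm2 at 3764 and 194, and Lmod1, an actin nucleator of smooth muscle, at 509 and 46.0. Smtn differed little, at 91.3 and 107 CPM.

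The 10 genes with the largest ratio toward the mural side were likewise at 0 on the fibroblast side. Pcp4l1 had 146 UMIs in 20 mural-side cells, at least 62.1-fold higher than the limit of 3 counts on the fibroblast side. The small GTPase Rrad had 102 UMIs in 10 cells, Map3k7cl 72 in 19, and Pln, which restrains the calcium pump of the sarcoplasmic reticulum, 64 in 13. Rergl had 62 UMIs in 15 cells, Sncg 57 in 15, Filip1 53 in 16, and Cox4i2, a cytochrome oxidase subunit, 51 in 18. Olfr558, an olfactory receptor gene, had 50 UMIs in 13 cells, and Gja4, the gap junction gene of connexin 37, 48 in 16.

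Signalling genes were unevenly divided. Pdgfa, a PDGF ligand, had 57 UMIs in 22 mural-side cells and 8 in 6 fibroblast-side cells, while Pdgfb, the usual endothelial ligand of Pdgfrb, had 4 UMIs in all. Ltbp4, which holds latent TGF-beta in the matrix, was at 849 CPM on the fibroblast side and 45.7 on the mural side, and 4 of 8 measured TGF-beta genes were over 2-fold higher on the fibroblast side. Of the vasoactive genes, 1 of 6 was over 2-fold higher and 3 were over 2-fold lower on the fibroblast side. Ednra, a receptor for endothelin, was at 35.8 CPM there and 183 on the mural side, and Gucy1b1, a subunit of the nitric oxide receptor, at 35.8 and 267. Ptger4, a prostaglandin receptor, had 22 UMIs in 10 fibroblast-side cells and 0 on the mural side.

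Transcription factors of the kidney stroma followed the same division. Tcf21 was at 302 CPM on the fibroblast side and 91.3 on the mural side, Osr1 at 92.1 and 0, and Foxd1, which marks the stromal progenitors of the embryonic kidney, at 113 and 6.52. Ebf1 was at 297 and 926, and Foxc1 at 25.6 and 163. Tbx18 and Meox1 were at 0 in all 61 cells. In all, 4 of 8 measured factors were over 2-fold higher and 3 over 2-fold lower on the fibroblast side.

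Renin cells lay mostly outside the selection. Ren1, which encodes renin (ENSMUSG00000070645, chromosome 1, 133350510 to 133360325, mm10), had 116 UMIs in 3 members, 84 and 31 of them in the 2 highest cells, all in the control. Among the 43 mural cells that missed the selection threshold, Ren1 had 3797 UMIs in 15 cells, of which 11 held at least 10 UMIs and the highest held 1114. By library, 5 of 11 such control cells, 0 of 1 cell at 15 min and 10 of 31 cells at 60 min held Ren1. Over all kept cells outside the members, Ren1 had 5349 UMIs in 89 cells. Of these, 1435 UMIs lay in 14 cells gated on Ptprc, an exclusion gene of the members. Akr1b7, an aldo-keto reductase of renin cells, was at 214 CPM in the 22 members with at least 20 smooth muscle and pericyte UMIs and at 1066 in the 43 other cells. Gata3 was seen in 4 of these members and in 19 of the other cells. Acta2 was at 11233 CPM in the members and 11175 in the others, and Myh11 at 2899.5 and 3187.5. Pdgfrb was at 468 and 110, a gap that the rule itself produces.

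The late platform interval and the control, both ending at 60 min, were then compared gene by gene over all members. Of 2873 genes with at least 20 UMIs over both libraries, 300 (10.4%) were over 2-fold higher and 165 (5.74%) over 2-fold lower at 60 min on the platform, with a median log2 ratio of 0.05. The sum over cells can be set by 1 or a few cells, so the number of cells and the highest cell are given.

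Of the 10 genes with the largest ratio toward the platform, 6 belonged to the fibroblast side. Of the 8 elastic fibre genes tested, 2 were over 2-fold higher and 1 over 2-fold lower, with a median log2 ratio of 0.12. Mfap4 (chromosome 11, 61485431 to 61488900, mm10) had 7 UMIs in 4 of 13 control fibroblast-side cells, with at most 3 in a cell. At 60 min on the platform it had 227 UMIs in 12 of 20 such cells, with a median of 3 and at most 76. Over all members the ratio was 20.5 (interval 9.79 to 51.6). Pi16, a marker of adventitial fibroblasts that is also 1 of the 11 placement genes, had 1 UMI in the control and 62 in 11 members at 60 min, a ratio of 39.2 (6.78 to 1573). Eln, elastin, had 4 UMIs in 3 control members and 111 in 17 members at 60 min (ratio 17.5, 6.66 to 65.5). Itgbl1 had 2 and 74 UMIs, and Pdgfrl 2 and 59. Wisp2, a secreted matricellular protein, had 0 UMIs in the control and 47 in 7 cells at 60 min, at least 9.91-fold higher than the limit of 3 counts. The ranges overlapped for each of these genes, since 6 to 13 of the 20 platform cells held none.

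The other 4 of these genes belonged to the mural side. Myom1, a gene of the sarcomere M band, had 21 UMIs in 12 of 16 mural-side cells at 60 min and 0 in the 7 control cells. Pln had 61 UMIs in 11 cells and 3 in 2 cells, a ratio of 12.9 (4.20 to 64.1). Rasd1 had 45 UMIs in 8 members and 2 in 2, and Nrgn 24 in 7 and 1 in 1. With 7 control mural-side cells, each such value rests on few cells.

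**Figure D4:**
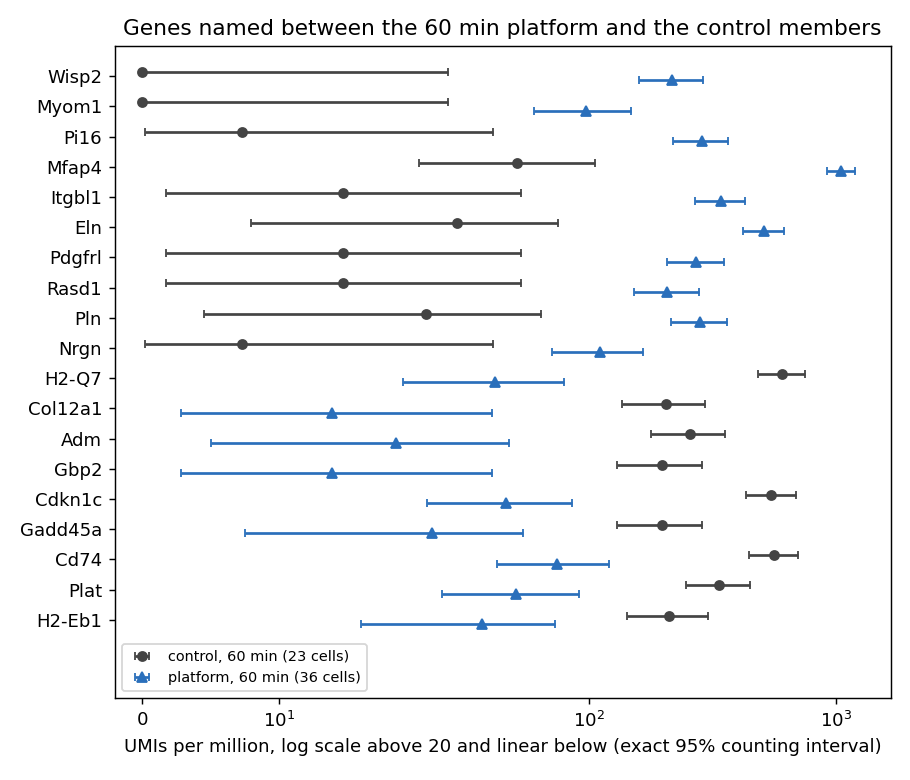
Level of genes with the largest ratios between the 60 min platform interval (triangles, 36 cells) and the control (circles, 23 cells), in CPM on an axis that is linear below 20 and logarithmic above, with exact 95% Poisson intervals (bars). The upper 10 genes were higher on the platform, from Wisp2 to Nrgn, and those below, from H2-Q7 to H2-Eb1, were higher in the control.

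Several of the 10 genes with the largest ratio toward the control drew most of their control UMIs from the 3 cells on neither side. H2-Q7 had 64 of its 83 control UMIs there, Cdkn1c, a cell-cycle inhibitor, 60 of 75, Plat, tissue plasminogen activator, 41 of 46, and Gadd45a 23 of 27. Without these 3 cells the ratio of Plat went from 0.151 to 1.24 (interval 0.397 to 4.55) and was then above 1. Gadd45a was then at 0.704 (0.152 to 3.55), and H2-Q7 and Cdkn1c remained below 1 at 0.267 (0.106 to 0.619) and 0.375 (0.151 to 0.893).

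Another 5 genes kept low ratios without those cells but were uneven between cells. Cd74, the invariant chain of antigen presentation, had 73 of its 77 control UMIs in 1 mural-side cell, and H2-Eb1, a class II chain, 24 of 29 in 1 mural-side cell. Gbp2 had 16 of 27 and the collagen Col12a1 14 of 28 in its highest cell. Adm, the vasodilator peptide adrenomedullin, was spread over 8 control cells with at most 10 UMIs in a cell, at 35 UMIs against 4 at 60 min on the platform (ratio 0.0723, 0.0187 to 0.202). Of these genes, Adm was the one in which the control UMIs lay in the most cells.

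The 5 fibroblast genes Wisp2, Pi16, Mfap4, Itgbl1 and Pdgfrl, named for this contrast, were found together in the same cells. Eln, also named for this contrast on the fibroblast side, was not counted among the 5. It had 101 UMIs in 14 of 20 platform fibroblast-side cells and 3 UMIs in 2 of 13 control ones. At 60 min on the platform, 9 of 20 fibroblast-side cells held at least 4 of the 5 genes, and 6 held all of them. In the control, 0 of 13 did. The genes were named for being nearly absent from the control, so this contrast follows from their choice and is a description. These 9 cells, grouped after their values were seen, held 8 to 123 UMIs of the 5 genes, with a median of 37, and a median of 5338 UMIs in all. The 13 control cells held 0 to 3, at a median depth of 6511 UMIs. The other 11 platform cells held 0 to 22, with a median of 0, at a median depth of 6713 UMIs.

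Other genes in these 9 cells are likewise given as a description. Cxcl12 was at 57.1 CPM in them, against 2718 in the other 11 platform cells and 4137 in the 13 control cells. It was seen in 3 of the 9 cells and in all 11 and all 13 of the others. Cxcl14, a chemokine (chromosome 13, 56288643 to 56296551, mm10), was at 0 in the 9 cells and at 869.7 and 2686 CPM in the other platform and the control cells. Igfbp3 was at 380, against 2376 and 1413. With 1 library per condition, a difference between conditions and a difference between the pieces of tissue sampled cannot be told apart here.

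Within the fibroblast side alone, 177 of 1474 tested genes were over 2-fold higher and 102 over 2-fold lower at 60 min on the platform. Collagen genes were over 2-fold higher in 4 of 10 and over 2-fold lower in 1, with a median log2 ratio of 0.86. Cxcl14 was the clearest chemokine difference, at 56 UMIs in 6 of 20 cells against 211 in 10 of 13 control cells (ratio 0.178, 0.130 to 0.240), although 94 of the control UMIs lay in 1 cell. Cxcl12 was at 0.368 times the control (0.305 to 0.443), with 178 UMIs in 14 of 20 cells and 325 in 13 of 13. Rbp4 was at 667 CPM against 3081 in the control, with a median of 3.5 UMIs per cell and of 9. The ranges of these 3 genes overlapped between the libraries.

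Within the mural side alone, 144 of 1080 tested genes were over 2-fold higher and 83 over 2-fold lower. Acta2 held a median of 62.5 UMIs per cell at 60 min on the platform (range 0 to 199) and of 2 in the control (0 to 131). The ratio of summed levels was 2.04 (1.79 to 2.33). The 5 smooth muscle genes together had a median of 256 UMIs per 10000 at 60 min (2.69 to 422) and of 19.0 in the control (0 to 354). The 5 pericyte genes had medians of 60.8 (0 to 97.1) and 53.3 (18.5 to 70.2). The interval for Rgs5 spanned 1, at a ratio of 1.16 (0.965 to 1.39). Smooth muscle UMIs were thus higher in the typical platform cell while the ranges overlapped, and pericyte UMIs covered much the same range.

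Dissociation itself induces immediate early and heat shock genes, and the study displayed 12 such genes (Fos, Fosb, Jun, Junb, Jund, Atf3, Egr1, Nr4a1, Gadd45b, Hspd1, Hspa8 and Hsp90aa1) for these same libraries. The list is therefore read here as a description and not as independent evidence of a direction. In the stromal members the 12 genes summed to 22891 CPM in the control, 29586 in the 2 cells at 15 min and 18243 at 60 min on the platform. Gated endothelial cells stood at 21776 and gated proximal tubule cells at 3747. These gates pooled the libraries in other proportions than the members. The 60 min interval gave 2263 of 3138 gated endothelial cells, and the 15 min interval 6976 of 11827 gated proximal tubule cells. Cell type and digestion time cannot be told apart in these 2 values. The summed level was 27527.5 on the mural side and 16082 on the fibroblast side. On the fibroblast side 4 of the 12 genes were over 2-fold lower. Medians per cell were closer, at 81.4 UMIs per 10000 on the mural side (13.5 to 796) and 66.3 on the fibroblast side (3.04 to 477). In the control the fibroblast-side median was the higher, at 140 against 75.1. At 60 min on the platform it was the lower, at 60.3 against 107. Fos, the most abundant, was at 7671 CPM on the mural side and 4112.5 on the fibroblast side.

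On the fibroblast side, 6 of the 12 genes were over 2-fold lower at 60 min on the platform, 0 were higher, and the median log2 ratio was -0.99, against 0.08 over all genes tested. The sum of the 12 genes was 23272 CPM in the control (interval 22217 to 24364) and 11253 on the platform (10653 to 11877.5). Per cell, it had a median of 140 UMIs per 10000 in the control (3.04 to 477) and of 60.3 on the platform (8.94 to 404), so the ranges overlapped widely. Fos was at 0.387 times the control (0.334 to 0.448) and Jun at 0.438 times (0.370 to 0.518), with medians per cell of 22 and 2.5 UMIs for Fos but of 5 and 5 for Jun.

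On the mural side the same genes showed no common direction, with 2 of 11 tested genes over 2-fold higher, 0 lower and a median log2 ratio of -0.13. The sum was 29431 CPM in the control (27835.5 to 31094), 29586 in the 15 min cells (26428 to 33018) and 26476 on the platform at 60 min (25473 to 27507). Per cell, the median was higher on the platform at 60 min, at 107 UMIs per 10000 (13.5 to 796), than in the control, at 75.1 (19.0 to 790). The ranges overlapped widely, and the 2 cells at 15 min stood at 27.0 and 545. Gadd45b, at 2.78 times the control (1.83 to 4.38), and Nr4a1, at 3.92 times (1.96 to 8.87), were the 2 genes over 2-fold higher. Of the 166 Gadd45b UMIs at 60 min, 78 lay in 1 cell. Whether the difference between platform and control differed between the sides was not tested.

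**Figure D5:**
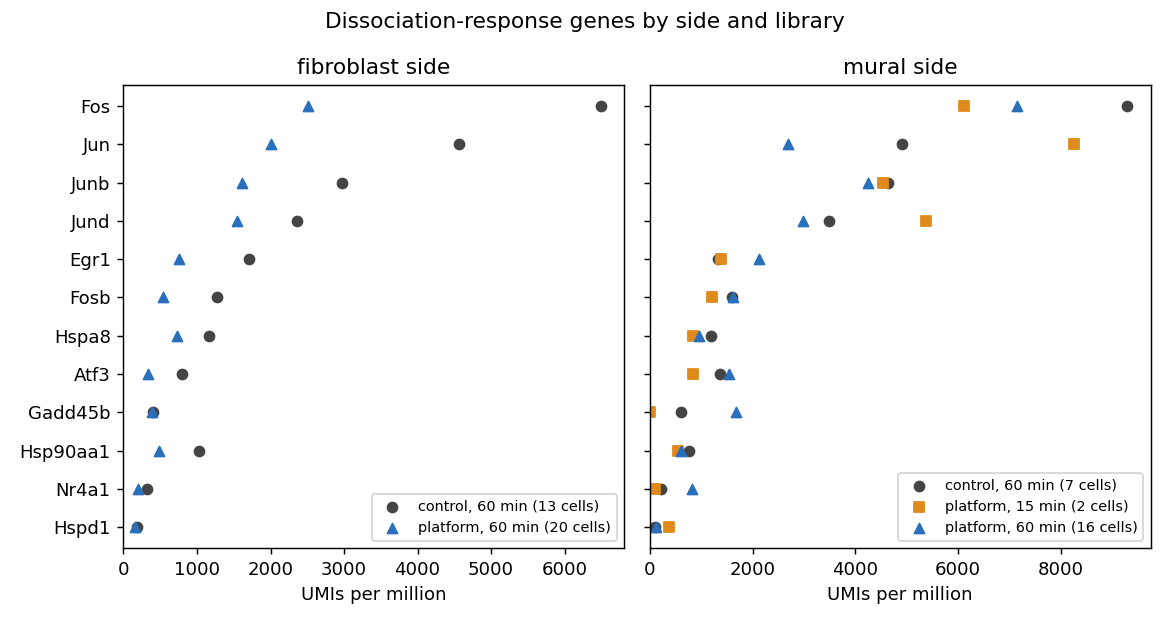
Level of the 12 dissociation-response genes (CPM, linear axis) on the fibroblast side (left) and the mural side (right), 1 symbol per library. On the fibroblast side the control (circles) lies to the right of the platform (triangles) for Fos, Jun, Junb, Jund and Egr1, while on the mural side the symbols change order from gene to gene.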

How the data were processed

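The submitters' processing notes name Cell Ranger 3.1.0 and the mm10 build. Per the study's methods, the authors aligned the reads, joined the kidney libraries with depth equalisation and deposited UMI counts per gene and cell, whole numbers before their own filters, over 31053 genes. UMIs removed by equalisation are lost. The 3 kidney libraries held 69691783 to 116998401 UMIs. Libraries were assigned through the barcode suffix and the aggregation file. The tumor matrix was used only for its number of cells.

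Counts were summed over cells with Python 3.11.15, numpy 2.4.6, pandas 2.3.3 and scipy 1.17.1. Genes were compared where at least 20 UMIs lay in both groups together, with 0.5 UMI added for ranking and for the 2-fold call. Named genes were those of the 30 lists, the 10 most abundant genes outside mitochondrial and ribosomal protein genes, and, per contrast and direction, the 10 with the largest ratios seen in at least 5 cells of the higher group, for platform against control with an interval beyond 2-fold. The selection, the lists and these rules were chosen with earlier results of these data known. Of 231 listed genes, 229 were found. Gates were 3 UMIs of Pecam1 and Kdr, 2 of Ptprc, or 5 of Slc34a1 and Lrp2. Doublets were treated through the gene limit and the exclusion genes, and no caller was run. Coordinates come from GENCODE's annotation of the same build. The calculations were tested on simulated counts. Values of a few listed or named genes are not reported here.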

Additional observations from a re-analysis of the deposited data

How the results depend on the processing

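No paired analysis was possible because each condition was 1 library, and no replicate could be left out. Of 63 values recomputed under alternatives, 48 moved by less than their counting interval or, for counts of genes, by less than 1.5 times, and 15 moved further. Thinning every cell to 1000 UMIs, which loses members by construction since the threshold stayed at 3 UMIs, gave member shares of 0.216% (control), 0% (15 min) and 0.159% (60 min), a 15 min to control ratio of 0, and fibroblast-side shares of 83.3% among control and 100% among late platform members. A threshold of 5 UMIs gave 0.252% at 60 min. Adding the cells with at least 20 smooth muscle and pericyte UMIs, an alternative chosen after seeing the data, gave 0.674% at 60 min and a 60 min to control ratio of 1.17. Leaving out the members with Nphs1 UMIs, also chosen after seeing the data, moved no share past its interval and gave a ratio of 1.01. Genes over 2-fold higher and lower numbered 125 and 55 of 1317 at a minimum of 40 UMIs, 144 and 83 of 1080 on the mural side alone, and 177 and 102 of 1474 on the fibroblast side alone, where fewer genes were tested. Without the upper gene limit, 293 of 4599 genes were lower. The 2 cells at 15 min allow no statement on genes there.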

Other observations

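Growth factor binding proteins divided between the sides. Igfbp7 was among the 10 most abundant genes of the stromal cells and was shared, at 6659.8 CPM on the fibroblast side and 4631 on the mural side, against 800.5 in all other kept cells. Igfbp3, Igfbp4 and Igfbp6 were at 1453, 1335 and 338 CPM on the fibroblast side and at 91.3, 45.7 and 0 on the mural side. Igfbp5 was at 512 and 874, and its 100 fibroblast-side UMIs lay in 6 cells. Matricellular genes were likewise mixed: Sparc was at 4051 CPM on the fibroblast side and 835 on the mural side, while Sparcl1 was at 532 and 1761. Tnc, Thbs2 and Postn, which are associated with matrix remodelling, were at 369, 255 and 115 CPM in the control fibroblast-side cells and at 68.4, 17.1 and 0 at 60 min on the platform, in 6, 6 and 5 fibroblast-side cells over both libraries. The 29 control UMIs of Tnc lay in 2 of 13 cells, and its 8 platform UMIs in 4 of 20. Thbs2 had 20 UMIs in 4 control cells and 2 UMIs in 2 platform cells, so these levels rest on few cells. On the fibroblast side, 3 of 8 tested matricellular genes were over 2-fold higher at 60 min on the platform and 3 over 2-fold lower. Their median log2 ratio was 0.33. Among the higher were Ctgf, at 159 UMIs against 33 in the control (ratio 3.24), and Sparc, at 597 against 195 (ratio 2.06). Tnc and Thbs2 were among the lower, and Postn had too few UMIs to be tested there.

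Gsn, which encodes the actin-severing protein gelsolin, was at 8184 CPM on the fibroblast side and 496 on the mural side, and Cst3, which encodes a secreted protease inhibitor, at 12056 and 1161. The long noncoding RNA Malat1 was the most abundant gene of the stromal cells, at 67489 CPM (49345 on the fibroblast side and 88382 on the mural side). It was not particular to them, at 57246 CPM in gated endothelial cells. Cells gated on Ptprc stood at 29094, gated proximal tubule cells at 7079 and all other kept cells together at 18165.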
